A study of Homo sapiens with 4 samples.

Results

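The 37 genes of the human mitochondrial genome were followed in ES2 and SKOV3, a pair of established human ovarian cancer cell lines, after 48 h with YY-15 or without any drug. The members were the rows of the deposited table with a name that starts with MT- on chromosome MT, and they made up 37 of 38558 genes: 13 for proteins, 2 for ribosomal RNAs and 22 for transfer RNAs. Each line gave 1 control library and 1 YY-15 library, called untreated and treated here, so the 4 groups hold 1 library each. YY-15 is known here by its code name alone, and the column headings of the table give its dose as 4 µM. The labels name WT and no transgene, all groups were grown in the same serum-containing medium, and the sources used here do not say whether a library came from 1 culture or several.

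With 1 library per group no difference could be tested, and no p-value is given. Each value compares a pair of libraries and has no replicate check. Levels are in FPKM, fragments per kilobase of gene scaled to library size, as the authors deposited them. Differences are log2((FPKM + 1)/(FPKM + 1)), YY-15 over control or SKOV3 over ES2, and a difference of 2-fold means 1 or more on this scale. Brackets hold an exact Clopper-Pearson 95% interval, computed from estimated counts as shares of their library and put on the log2 scale. It reflects counting error alone and says nothing of how cultures vary, and copies made by PCR are not separate molecules.

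The mitochondrial genome is a small circle that is copied and transcribed inside the organelle. Its proteins are core subunits of the respiratory chain and of ATP synthase, and its ribosomal and transfer RNAs serve the organelle's own ribosomes. Each strand is transcribed as a long precursor, from which the messenger and ribosomal RNAs are freed by cutting out the transfer RNAs that stand between them. RNAs written in the table as plus-strand are templated by the heavy strand and are called heavy-strand here. Those on the minus strand, MT-ND6 and 8 transfer RNAs, are called light-strand. The libraries were made from RNA selected with oligo(dT), which captures the short tails of mitochondrial ribosomal RNA in part and captures transfer RNAs poorly. The 3 classes are therefore reported apart, and reads on a transfer RNA gene may come from precursors that span it as well as from the mature molecule.

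The estimated counts summed to between 62522202 and 67431058 per library. The label of epithelial ovarian cancer was checked against markers. KRT8 and KRT18, keratins of simple epithelia, were above 1 FPKM in each library. KRT19, another of them, was at 0 FPKM in untreated and 0.0363 in treated ES2, and at 20.5 and 12.5 in SKOV3. In ES2 the ovarian carcinoma markers PAX8, MUC16, WT1 and MSLN were under 1 FPKM, and EPCAM and CDH1 were listed at 0. In SKOV3, PAX8 was at 37.4 FPKM in the untreated and 43.7 FPKM in the treated library, and MUC16, WT1 and MSLN were under 1 FPKM. EPCAM was at 0.752 and 1.15 FPKM in untreated and treated SKOV3, and CDH1 at 0.207 and 0.547. The leukocyte markers with a row (PTPRC, CD14 and LYZ) were under 1 FPKM throughout. Of 3 endothelial markers only CDH5 passed it, in ES2 alone, and of 3 fibroblast genes COL1A1 was between 54.4 and 95.1 FPKM and LUM passed 1 FPKM in SKOV3 alone.

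Mitochondrial RNA took a similar part of the library with and without YY-15. All 37 genes together held 5.84% of the estimated counts in untreated ES2, 6.08% in treated ES2, 4.76% in untreated SKOV3 and 4.61% in treated SKOV3. The classes differed in direction. In SKOV3 the 13 protein genes held 4.09% of the untreated and 3.68% of the treated library, a log2 ratio of -0.15 [-0.15 to -0.15]. The ribosomal RNA genes held 0.621% and 0.881%, a log2 ratio of 0.50 [0.50 to 0.51]. Transfer RNA genes held 0.0563% in untreated SKOV3 and 0.0483% in treated SKOV3, a log2 ratio of -0.22 [-0.25 to -0.20]. All 3 classes held a larger share of the counts in treated than in untreated ES2. The log2 ratios were 0.04 for protein genes, 0.15 for ribosomal RNA and 0.20 for transfer RNA. As a part of summed FPKM, the protein genes went the other way, from 20.8% in untreated to 20.4% in treated ES2. Ribosomal and transfer RNA were higher in treated ES2 on that scale too. In bulk RNA, fewer mitochondrial genomes per cell, fewer cells that hold them and less RNA from each cannot be told apart.

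**Figure D1:**
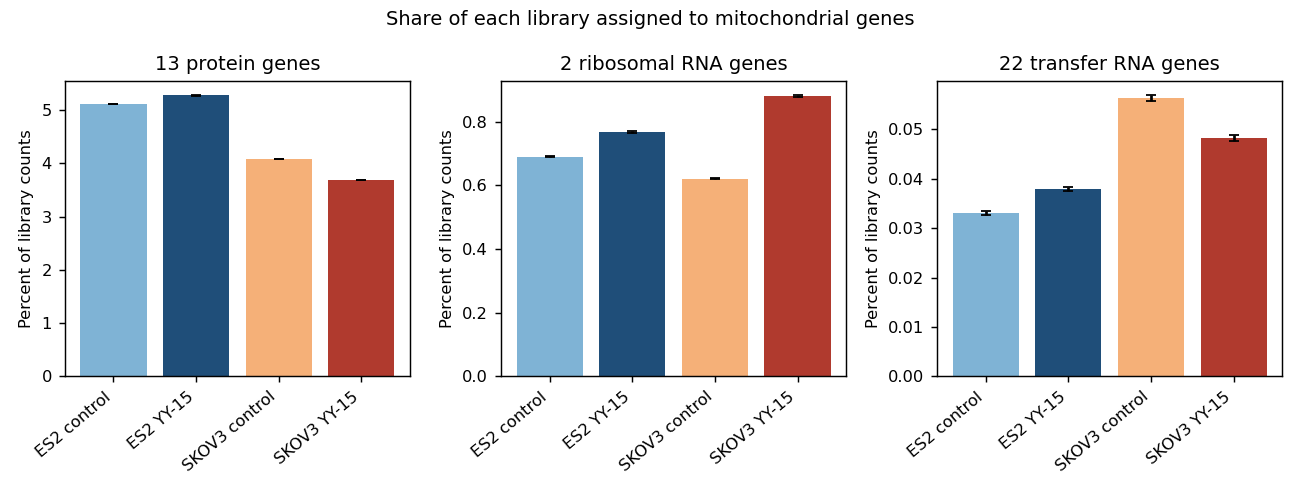
Percent of each library's estimated counts (vertical axes, from 0) assigned to the 13 protein, 2 ribosomal RNA and 22 transfer RNA genes of the mitochondrial genome; bars are single libraries and error bars are exact 95% binomial intervals that cover counting error only. The ribosomal RNA share is highest in treated SKOV3 at 0.881%, while the protein share is lowest there at 3.68%.

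Among the protein genes, 12 of 13 were lower in the treated SKOV3 library than in untreated SKOV3, by small amounts, and MT-CO1 alone was higher. None reached a 2-fold difference, where 2.97% of the 13294 genes did whose FPKM was at least 1 in either SKOV3 library (1.31% lower and 1.66% higher). The median log2 ratio of the 13 genes was -0.29, against 0.02 over all those genes, of which 47.3% were below 0. All 37 members passed the filter in every comparison, so none was lost to it. Leaving MT-CO1 aside, levels of the protein genes ran from 318 FPKM for MT-ND3 in treated SKOV3 to 7494 FPKM for MT-ATP8 in untreated ES2.

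MT-CYB encodes cytochrome b, the subunit of complex III made inside the organelle. It stood at 1624 FPKM in untreated ES2, 1392 in treated ES2, 1932 in untreated SKOV3 and 1255 in treated SKOV3. The YY-15 library was the lower of the pair in both lines. Its log2 ratio was -0.62 [-0.63 to -0.61] in SKOV3 and -0.22 [-0.23 to -0.21] in ES2, in each line the lowest among the protein genes.

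MT-CO1, the catalytic subunit of cytochrome c oxidase (complex IV), had the highest FPKM of the 37 genes in each library. It was at 10046 FPKM in untreated ES2, 10930.0 in treated ES2, 7087 in untreated SKOV3 and 7796 in treated SKOV3. Here the YY-15 library was the higher of the pair in both lines, with log2 ratios of 0.14 [0.14 to 0.15] in SKOV3 and 0.12 [0.12 to 0.13] in ES2. The FPKM of MT-CO1 divided by that of MT-CYB, a ratio that does not depend on how a library is scaled, was 6.19 in untreated ES2 and 7.85 in treated ES2. In SKOV3 it was 3.67 in the control and 6.21 with YY-15. The other complex IV genes, MT-CO2 and MT-CO3, which encode further core subunits, had SKOV3 log2 ratios of -0.15 and -0.18, and -0.03 and 0.01 in ES2.

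All 7 complex I genes, whose products form most of the membrane arm of NADH dehydrogenase, were lower in treated SKOV3, with log2 ratios from -0.43 to -0.20 and a median of -0.36. MT-ND5 was at 1189 FPKM in untreated ES2, 1211 in treated ES2, 1783 in untreated SKOV3 and 1324 in treated SKOV3. MT-ND6, the protein gene on the light strand, was at 673, 714, 1200.0 and 891 FPKM in the same order. These neighbours, which lie on opposite strands, had SKOV3 log2 ratios of -0.43 [-0.43 to -0.41] and -0.43 [-0.44 to -0.40]. Whether the counting used strand is not stated, so counts on MT-ND6 may include reads of heavy-strand RNA. MT-ND6 is therefore not a separate reading of the light strand here. The FPKM of MT-ND6 over that of MT-ND5 was 0.673 in both SKOV3 libraries, and 0.566 in untreated ES2 and 0.590 in treated ES2. In ES2, 6 of the 7 complex I genes were above 0, from 0.02 for MT-ND3 to 0.10 for MT-ND4L, and MT-ND1 was at -0.11.

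MT-ATP8 and MT-ATP6, subunits of the membrane sector of ATP synthase, overlap by 46 bases on the same strand, and MT-ND4L and MT-ND4 overlap by 7 bases. Each pair is known to share a messenger RNA, and reads in the overlap cannot be assigned to either gene with certainty. The SKOV3 log2 ratios were -0.27 for MT-ATP8 and -0.30 for MT-ATP6, and -0.20 for MT-ND4L and -0.22 for MT-ND4. FPKM of MT-ND4L over MT-ND4 lay between 0.695 and 0.711 in the 4 libraries, so this pair kept nearly the same proportion in each.

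Taken along the genome, the SKOV3 ratios of protein genes were not ordered by distance from the start of the heavy-strand precursor. The last genes on the map, MT-ND5, MT-ND6 and MT-CYB, were the 3 lowest, but MT-CO1, in the middle, was highest and MT-ND1, the first, was at -0.36. As parts of the summed FPKM of the 13 genes, complex IV genes made up 37.8% in untreated SKOV3 and 42.6% in treated SKOV3. Those of complex I made up 33.7% and 31.5%, of complex III 4.54% and 3.38%, and of ATP synthase 23.97% and 22.5%. In ES2 the part of complex IV was 41.9% in the control and 42.9% with YY-15. Across the 13 genes the log2 ratios of both lines correlated at Pearson r = 0.58 and Spearman rho = 0.32; these lines share no library, but neighbouring genes share precursors and are not independent points, and 7 of the 13 had opposite signs in the lines.

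In ES2, 8 of the 13 protein genes were above 0, 5 were below 0 and none reached 2-fold, where 0.835% of 12341 genes did (0.486% lower and 0.348% higher). The median was 0.02, against -0.02 over all ES2 genes, 45.7% of which were above 0 and 54.3% below. After rescaling FPKM to a sum of 1000000 per library, 5 of the 13 were above 0 and the median was -0.02, and with the trend on GC content removed 11 of the 13 were above 0 and the median was 0.09, so no direction can be given for ES2. Log2 ratios followed the GC content of transcripts across ES2 genes (Spearman rho = 0.43 over 12010 genes, a description with no test), and the protein genes, at 39.6% to 47.7% GC, lie below the median of 49.7% over the genes that passed the filter in SKOV3. The part of this trend in the ES2 values of the members was not tested beyond the correction given with the alternatives.

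**Figure D2:**
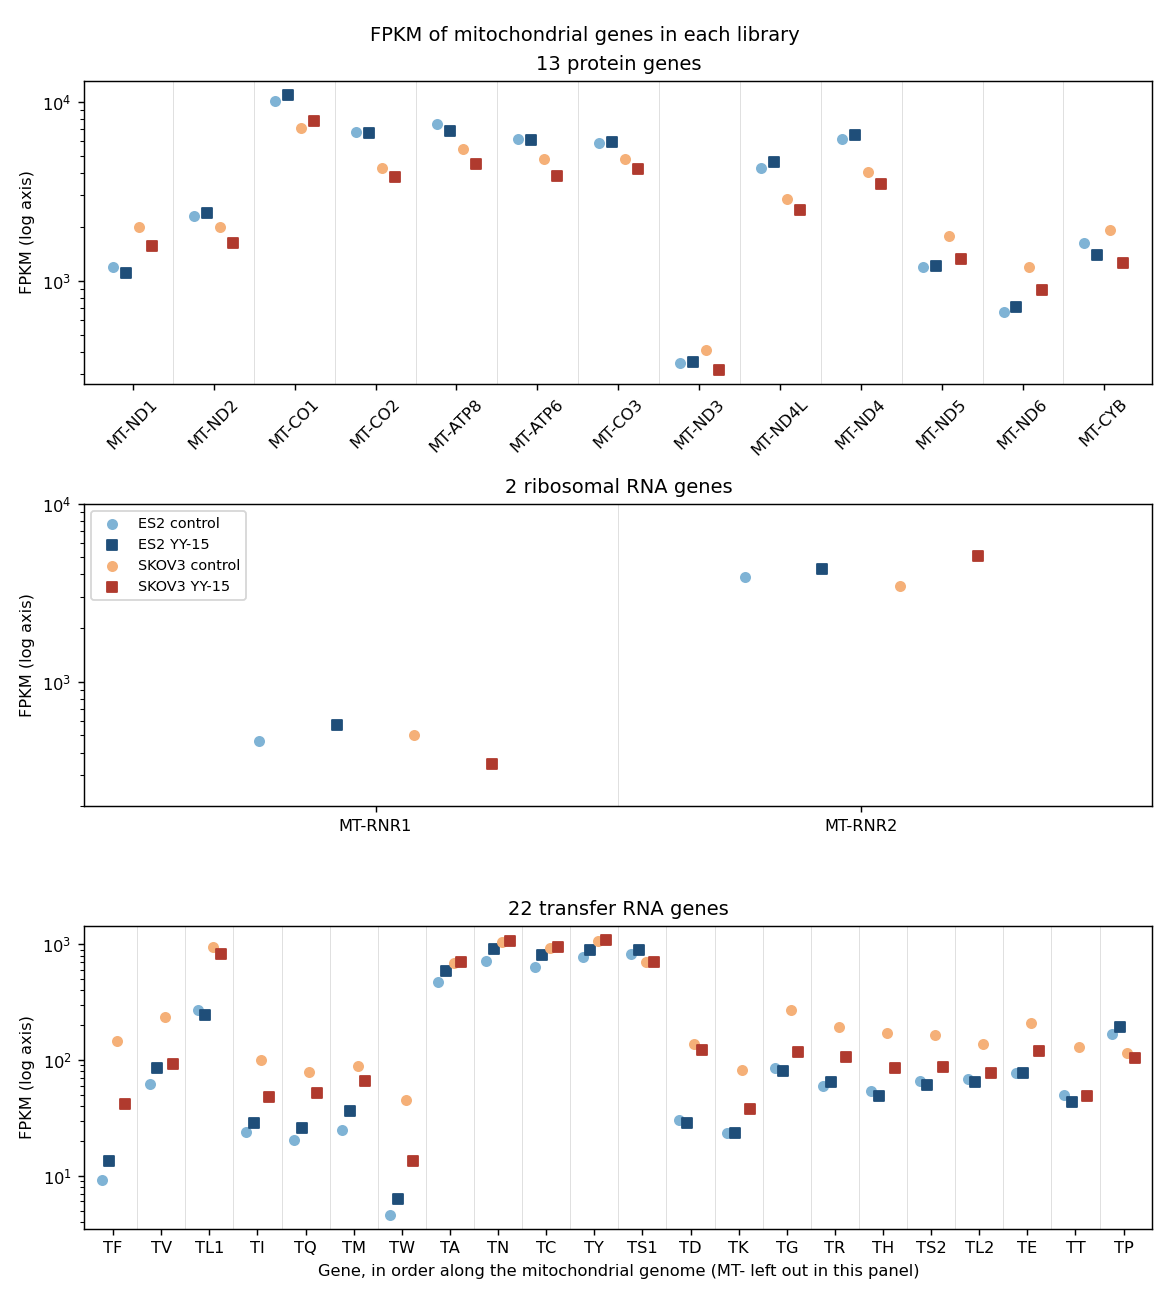
FPKM on a log axis of each mitochondrial gene in the 4 libraries, in order along the genome; each point is 1 library, so there are no error bars. MT-CO1 is highest in every library, and most transfer RNA genes are highest in untreated SKOV3.

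The ribosomal RNA genes differed in opposite directions in SKOV3. MT-RNR2, which encodes the 16S RNA of the large ribosomal subunit (positions 1671 to 3229), was at 3894 FPKM in untreated ES2, 4296 in treated ES2, 3458 in untreated SKOV3 and 5104 in treated SKOV3. MT-RNR1, the 12S RNA of the small subunit (positions 648 to 1601), was at 462, 571, 501 and 343 FPKM in the same order. Treated SKOV3 was thus the highest of the 4 libraries for 16S RNA and the lowest for 12S RNA.

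For MT-RNR2 the log2 ratio in SKOV3 was 0.56 [0.56 to 0.57], and 92.5% of the SKOV3 genes past the filter had a lower one. MT-RNR1 had -0.55 [-0.57 to -0.52], with 6.59% of genes lower. The FPKM of 16S over 12S RNA was 8.43 in untreated ES2, 7.52 in treated ES2 and 6.90 in untreated SKOV3, and 14.9 in treated SKOV3. In ES2 both genes were above 0, at 0.14 [0.14 to 0.15] for MT-RNR2 and 0.30 [0.28 to 0.33] for MT-RNR1. The genes are separated by MT-TV alone and lie on the same precursor. How much of either RNA the oligo(dT) step captured was not measured, and the part of capture in these ratios was not tested.

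Transfer RNA genes showed the largest SKOV3 differences of the 37. All 14 heavy-strand transfer RNA genes were lower in treated SKOV3 than in untreated SKOV3, and 7 of them by 2-fold or more, where 1.31% of the SKOV3 genes past the filter were 2-fold lower. MT-TH, at -0.999, was just under the 2-fold size. On counts per 1000000, where the pseudocount weighs more on short genes, 5 of the 14 were 2-fold lower, and MT-TK at -0.90 and MT-TI at -0.88 were not. As count shares with nothing added, MT-TK was at -1.11 and MT-TI at -1.06. The median FPKM log2 ratio of the 14 was -1.02. Of the 8 light-strand genes, 5 were at or slightly above 0 and 3 below, and none reached 2-fold.

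Printed below are 4 heavy-strand genes that were 2-fold or more lower in treated SKOV3 and 4 light-strand genes that were level there, so that the molecules behind the contrast can be seen. Each is the gene's own strand, 5′ to 3′, from the GENCODE 29 transcript set on GRCh38, whose coordinates match the deposited table for all 37 genes. Capitals mark the anticodon, found as its letters after a T in the middle of the gene.
MT-TF: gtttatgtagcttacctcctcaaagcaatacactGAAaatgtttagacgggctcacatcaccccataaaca
MT-TV: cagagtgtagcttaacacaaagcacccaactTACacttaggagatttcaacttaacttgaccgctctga
MT-TW: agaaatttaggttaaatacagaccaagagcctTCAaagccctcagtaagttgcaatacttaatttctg
MT-TT: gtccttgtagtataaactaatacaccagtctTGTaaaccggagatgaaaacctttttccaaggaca
MT-TA: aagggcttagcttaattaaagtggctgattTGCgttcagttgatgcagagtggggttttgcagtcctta
MT-TN: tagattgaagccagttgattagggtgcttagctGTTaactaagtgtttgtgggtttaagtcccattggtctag
MT-TY: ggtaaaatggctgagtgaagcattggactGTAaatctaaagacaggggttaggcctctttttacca
MT-TS1: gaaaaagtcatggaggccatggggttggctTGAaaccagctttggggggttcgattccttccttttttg
They carry phenylalanine, valine, tryptophan, threonine, alanine, asparagine, tyrosine and, for MT-TS1, serine.

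MT-TF, the first gene of the heavy-strand precursor (positions 577 to 647), had the lowest SKOV3 ratio. It was at 9.24 FPKM in untreated ES2, 13.3 in treated ES2, 147 in untreated SKOV3 and 41.5 in treated SKOV3, from 45, 67, 745 and 196 estimated counts. Both SKOV3 libraries were above both ES2 libraries. The log2 ratio was -1.80 [-2.05 to -1.59] in SKOV3 and 0.48 [-0.05 to 1.09] in ES2, where the interval reached across 0.

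MT-TW, between MT-ND2 and MT-TA (positions 5512 to 5579), was the lowest transfer RNA gene in each library. Its FPKM was 4.58 in untreated ES2, 6.31 in treated ES2, 44.9 in untreated SKOV3 and 13.5 in treated SKOV3. With 22 and 31 counts in ES2, the ES2 ratio of 0.39 [-0.40 to 1.29] had no clear direction, while that in SKOV3 was -1.66 [-2.14 to -1.30].

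MT-TT follows MT-CYB (positions 15888 to 15953) and was at 50.3, 43.1, 130 and 48.7 FPKM in untreated ES2, treated ES2, untreated SKOV3 and treated SKOV3. Treated SKOV3 lay between the ES2 libraries. Its SKOV3 log2 ratio was -1.40 [-1.64 to -1.18]. MT-TV, between the ribosomal RNA genes (positions 1602 to 1670), was at 61.7, 86.1, 235 and 91.9 FPKM in that order, a SKOV3 log2 ratio of -1.35 [-1.51 to -1.19] and an ES2 ratio of 0.48 [0.26 to 0.70]. The others past 2-fold in SKOV3 were MT-TG (-1.19), MT-TK (-1.10) and MT-TI (-1.05), for glycine, lysine and isoleucine. Under 2-fold lay MT-TS2 (-0.90) for serine, MT-TR (-0.87) for arginine, MT-TL2 (-0.83) for leucine and MT-TM (-0.43) for methionine. Nearest to level were MT-TL1 (-0.20 [-0.25 to -0.13]), a leucine transfer RNA and the most abundant heavy-strand one, and MT-TD (-0.16 [-0.32 to 0.01]), for aspartate.

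The light-strand genes MT-TA, MT-TN, MT-TC and MT-TY form a cluster between MT-TW and MT-CO1, and MT-TS1 abuts the other end of MT-CO1. These 5 were between 471 and 902.98 FPKM in the ES2 libraries and between 685 and 1091 in the SKOV3 libraries, far above most heavy-strand genes. For MT-TY (positions 5826 to 5891) the values were 770.4 FPKM in untreated ES2, 890.1 in treated ES2, 1076 in untreated SKOV3 and 1091 in treated SKOV3. Its SKOV3 log2 ratio was 0.02 [-0.03 to 0.08]. The SKOV3 ratios of the 5 genes lay between 0.01 and 0.04, and with ratios centred on the median of all genes MT-TC, MT-TY and MT-TS1 were just below 0. In ES2 they lay between 0.11 and 0.33.

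The remaining light-strand genes stood at lower levels, between 20.4 and 210.0 FPKM. MT-TQ (glutamine) and MT-TE (glutamate) were lower in treated SKOV3, at -0.60 [-0.83 to -0.37] and -0.80 [-0.95 to -0.65], and MT-TP (proline) was at -0.14 [-0.32 to 0.04]. Summed, these 3 genes had a log2 ratio of -0.54 [-0.65 to -0.44]. The 5 clustered or MT-CO1-flanking genes had 0.03 [0.00 to 0.06] when summed. The annotated strand of a gene alone therefore does not separate the lower from the level genes. Whether the counts on these genes come from RNA of that strand is not known.

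The library protocol keeps strand, but the sources used here do not say whether the counting used it. If it did not, reads of heavy-strand RNA that cross a light-strand gene would be counted on that gene. The messenger RNA of MT-CO1 is known to run past its stop codon into the stretch opposite MT-TS1. The FPKM of MT-TS1 was 0.0829, 0.0821, 0.0985 and 0.0900 of that of MT-CO1 in untreated ES2, treated ES2, untreated SKOV3 and treated SKOV3. For MT-TY, at the other end of MT-CO1, the values were 0.0767, 0.0814, 0.152 and 0.140 in the same order, so they differed more between the lines. Sense and antisense reads over these genes cannot be told apart here.

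**Figure D3:**
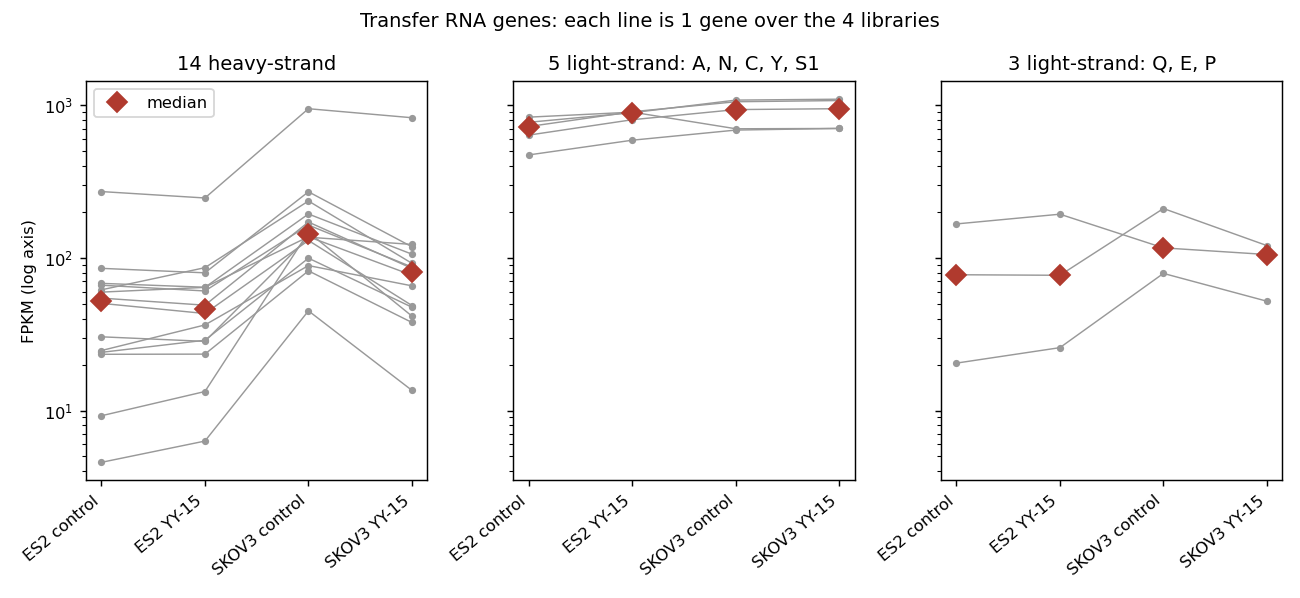
FPKM on a log axis of the transfer RNA genes in the 4 libraries, each grey line 1 gene and each diamond the median of its panel. The 14 heavy-strand genes peak in untreated SKOV3 (median 142 FPKM), while the genes A, N, C, Y and S1 lie between 471 and 1091 FPKM with little difference between the SKOV3 libraries.

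Other short genes were counted beside them in both lines. Of 93 genes outside the mitochondrial genome that span 100 bases or less and passed the filter in SKOV3, 52 were above 0, 8 were 2-fold lower and 11 were 2-fold higher, with a median log2 ratio of 0.12. Over all SKOV3 genes 1.31% were 2-fold lower and 1.66% higher, so short genes passed 2-fold more often in either direction. Of 89 such genes in ES2, 59 were below 0, 11 were 2-fold lower and 3 were 2-fold higher, with a median of -0.24, where 0.486% of all ES2 genes were 2-fold lower and 0.348% higher. Fragment length and capture of short RNA were not measured per library, and their part in the transfer RNA values was not tested.

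In ES2 the 14 heavy-strand transfer RNA genes had a median log2 ratio of -0.04, with 7 above 0, 7 below and none at 2-fold. As summed count shares, all 14 had a log2 ratio of -0.01 [-0.07 to 0.06] in ES2 and -0.66 [-0.70 to -0.62] in SKOV3. MT-TD and MT-TL1 were the nearest to level in SKOV3, so a sum without them is lower there by that choice. The 12 others summed to 0.07 [-0.01 to 0.15] in ES2 and to -1.10 [-1.16 to -1.05] in SKOV3. Transfer RNA genes had a GC content of 23.1% to 49.3%, and with the trend on GC content removed the ES2 median of all 14 was 0.32. The difference between the lines was not tested. Over all 37 members, 9 had counting intervals below 0 in SKOV3 and above 0 in ES2, and none had the reverse. Of 11028 genes past the filter in both lines, 13.5% had the first pattern and 17% the reverse.

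**Figure D4:**
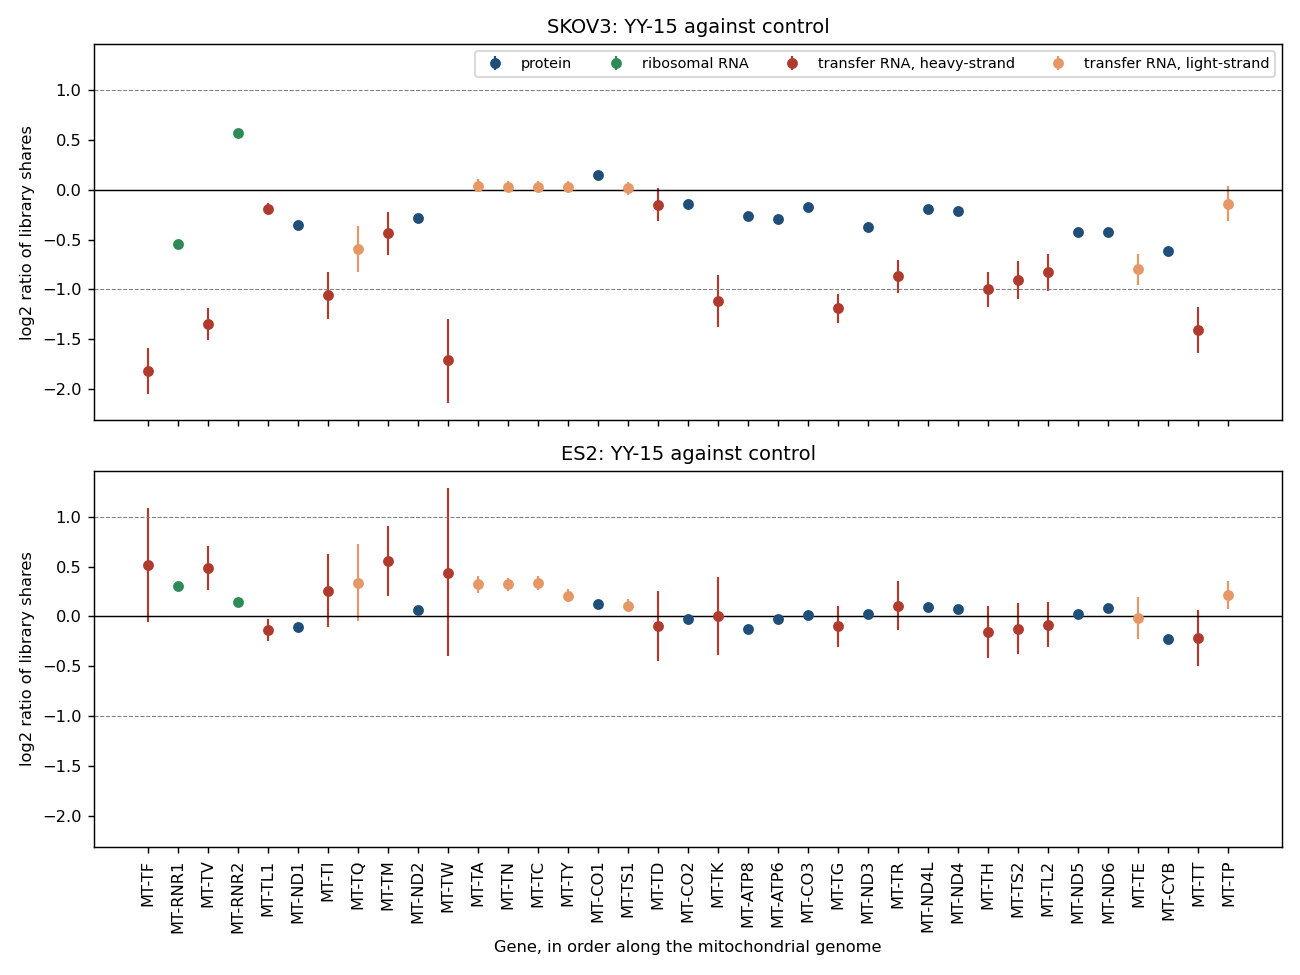
Log2 ratio of library shares, YY-15 over control, for each mitochondrial gene in genome order in SKOV3 (top) and ES2 (bottom); points are 1 pair of libraries, bars are exact 95% intervals of counting error, and dashed lines mark 2-fold. In SKOV3 the heavy-strand transfer RNA genes lie below 0 and MT-RNR2 and MT-RNR1 lie on opposite sides of it, while most ES2 points lie within 0.5 of 0.

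The untreated lines differed most in the heavy-strand transfer RNAs. All 14 heavy-strand genes were 2-fold or more higher in untreated SKOV3 than in untreated ES2, where 16.2% of 14024 genes were, with a median log2 ratio of 1.78. MT-TF had 3.85 [3.54 to 4.44] and MT-TW 3.04 [2.60 to 3.94]. MT-TL2, a second leucine transfer RNA, was lowest of the 14 at 1.004 [0.82 to 1.21], so it passed 2-fold narrowly. Relative to counts outside the mitochondrial genome, with nothing added, MT-TL2 was at 0.996, under 2-fold. Of 105 genes outside the mitochondrial genome that span 100 bases or less and passed the filter here, 13 were 2-fold higher and 24 lower. The comparison shares the untreated SKOV3 library with the SKOV3 treatment comparison, so the size of both differences rests on that library. Each of the 14 was highest in untreated SKOV3, and 13 of them were still higher in treated SKOV3 than in either ES2 library, MT-TT being the exception. Median levels were 52.3 FPKM in untreated ES2, 46.0 in treated ES2, 142 in untreated SKOV3 and 81.0 in treated SKOV3.

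Of the protein genes, 8 of 13 were lower in untreated SKOV3 than in untreated ES2, where 46.8% of all genes were. They were MT-ND2 and all those from MT-CO1 through MT-ND4 on the map other than MT-ND3, from -0.20 for MT-ND2 to -0.68 for MT-CO2. Higher in untreated SKOV3 were MT-ND6 (0.83), MT-ND1 (0.75), MT-ND5 (0.58), MT-ND3 (0.25) and MT-CYB (0.25). None of the 13 reached 2-fold, where 28.7% of all genes did, and their median was -0.31 against 0.07 over all genes. For the ribosomal RNAs the ratios were 0.12 for MT-RNR1 and -0.17 for MT-RNR2.

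Several mitochondrial genes have near-identical copies in the nuclear genome, and reads can be split between a gene and its copy. The copy with most counts, MTATP6P1 on chromosome 1 (633696 to 634376), was at 1152 FPKM in untreated ES2, 1116 in treated ES2, 836 in untreated SKOV3 and 675 in treated SKOV3. The named copies of MT-ATP6, nearly all counts being those of MTATP6P1, held between 14.9% and 15.7% of the summed counts of gene and copies. Copies of MT-ND2, chiefly MTND2P28, held between 7.34% and 8.24%, and those of MT-CO1, chiefly MTCO1P12, between 1.33% and 1.37%. The copies had log2 ratios near those of the mitochondrial genes, at -0.31, -0.19 and 0.10 in SKOV3 for MTATP6P1, MTND2P28 and MTCO1P12. For the other protein genes, copies held at most 0.118% of the counts. With copies added, the SKOV3 log2 ratios of MT-ATP6 and MT-ND2, on counts, were -0.29 and -0.28.

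Nuclear genes that transcribe, copy, process and stabilise the mitochondrial genome were examined in 8 lists of 55 genes in all, of which 53 passed the filter in each treatment comparison. None of the 53 was 2-fold different in either line, where 2.97% of all genes were in SKOV3 and 0.835% in ES2, so a count of 0 is near the background. In SKOV3, 28 of 53 were above 0, against 52.7% of all genes, with a median log2 ratio of 0.01 against 0.02. In ES2, 23 of 53 were above 0, against 45.7% of all genes, with a median of -0.02 against -0.02. The lists as a whole were therefore near all genes in both lines, and the values of single genes follow as a description.

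POLRMT, the mitochondrial RNA polymerase, was at 24.1 FPKM in untreated ES2, 25.9 in treated ES2, 26.6 in untreated SKOV3 and 26.1 in treated SKOV3. TFAM, which packs mitochondrial DNA and starts its transcription, was at 21.1, 16.3, 9.68 and 9.46 FPKM in the same order. POLRMT was thus close to level in all 4 libraries, and TFAM was higher in ES2 than in SKOV3. The SKOV3 log2 ratios were -0.03 [-0.06 to 0.02] for POLRMT and -0.03 [-0.10 to 0.04] for TFAM, and TFAM had -0.35 [-0.42 to -0.32] in ES2. With the trend on GC content removed, TFAM was at -0.17 in ES2. TFB2M, the factor that opens the promoter, had 0.17 in SKOV3 and -0.02 in ES2, and TEFM, the elongation factor, had -0.21 and 0.10.

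Genes that cut transfer RNAs out of the precursors formed a list of 4, of which 3 were below 0 in SKOV3, where 47.3% of all genes were. So small a list gives no direction. ELAC2, the nuclease that cuts at the 3′ end, was at 14.6 FPKM in untreated ES2, 15.6 in treated ES2, 11.6 in untreated SKOV3 and 7.83 in treated SKOV3. Its SKOV3 log2 ratio was -0.51 [-0.62 to -0.50]. TRMT10C and HSD17B10, partners in the enzyme that cuts at the 5′ end, had -0.33 and -0.26, and PRORP, the nuclease of that enzyme, had 0.06. In ES2, TRMT10C was at -0.49 and the other 3 between 0.08 and 0.13. With the trend on GC content removed, TRMT10C was at -0.28 in ES2 and the other 3 between 0.03 and 0.17.

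LRPPRC and SLIRP bind and stabilise mitochondrial messenger RNAs as a complex. LRPPRC was at 8.08 FPKM in untreated ES2, 6.69 in treated ES2, 5.72 in untreated SKOV3 and 6.67 in treated SKOV3. SLIRP was at 7.59, 6.88, 5.41 and 3.35 FPKM in the same order. The treated SKOV3 library was therefore higher than its control for LRPPRC (0.19 [0.19 to 0.26]) and lower for SLIRP (-0.56 [-0.83 to -0.54]). FASTKD5, needed for maturation of some mitochondrial messenger RNAs, had -0.56 [-0.79 to -0.59] in SKOV3, and TWNK, the replicative helicase, had 0.56 [0.63 to 0.92]. These intervals are of count shares without the added 1, so they can lie outside the FPKM ratio of genes at low levels.

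The other lists are given as counts, to be read against 52.7% of all genes above 0 in SKOV3 and, in ES2, 45.7% above and 54.3% below. Of 10 genes that modify transfer RNAs, 5 were above 0 in SKOV3 and 4 in ES2. Of 7 that modify ribosomal RNAs, 6 were above 0 in SKOV3, with a median log2 ratio of 0.06, and 4 in ES2. The 5 regulators of mitochondrial biogenesis that passed the filter were all above 0 in SKOV3, with a median of 0.17, and 2 of them in ES2. Genes for stability, polyadenylation and decay were below 0 in ES2 in 6 of 6 cases, with a median of -0.16, and above 0 in SKOV3 in 4 of 6, with a median of 0.03. All of these were under 2-fold in size, and lists of 5 to 10 genes give no direction from such counts.

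Between the untreated lines, 39 of the 53 nuclear genes were lower in SKOV3, where 46.8% of all genes were. Of the 53, 10 were 2-fold or more lower, where 12.5% of all genes were. None was 2-fold higher, where 16.2% of all genes were, and the median log2 ratio was -0.36 against 0.07 over all genes. TFAM had -1.05 [-1.18 to -1.06] and TFB2M had -1.54 [-1.80 to -1.57], while POLRMT had 0.14 [0.10 to 0.19].

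**Figure D5:**
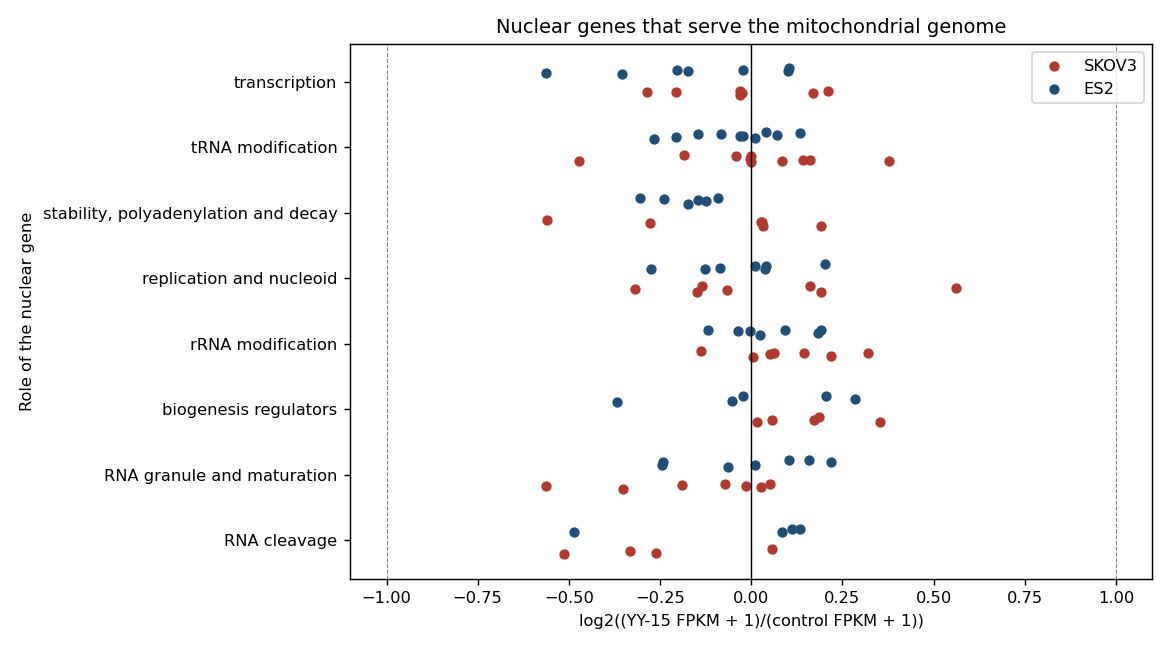
Log2((YY-15 FPKM + 1)/(control FPKM + 1)) of nuclear genes that serve the mitochondrial genome (horizontal axis), by role (vertical axis), each point 1 gene in SKOV3 or ES2; vertical scatter within a row has no meaning and dashed lines mark 2-fold. No gene reaches the dashed lines, and the points furthest from 0 are near 0.56 in size.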

How the data were processed

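RNA was selected with oligo(dT), made into dUTP-marked libraries and sequenced from both ends, per the labels' protocols. The authors deposited FPKM and counts for each of 4 libraries in 1 table, per the file headers. The deposited counts are whole but are treated as estimated counts, because between 210 and 229 genes in a library show 1 count next to a nonzero FPKM below 0.001. DESeq2, edgeR, StringTie 2.1.6, HISAT2 2.2.1 and cutadapt 1.9 are named, without roles, per the submitters' processing notes, as is mm10, a mouse build. All identifiers are human, and 99.9% of those found in GENCODE 29 overlap the same gene on GRCh38. For the 37 members, count over FPKM and full gene length was constant within 4.41%, so FPKM uses full length without correction for short genes.

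A gene entered a comparison if its FPKM was at least 1 in either library, with a pseudocount of 1. The rule for genes to name took all 37 members, 6 nuclear genes whatever their values (POLRMT, TFAM, TFB2M, TEFM, LRPPRC and SLIRP), any listed nuclear gene past 2-fold and up to 5 nuclear copies; ELAC2, TRMT10C, HSD17B10, PRORP, FASTKD5 and TWNK were added to the text once their values were known. The members and lists were chosen with earlier results of these data known. 1 of the listed cell type markers is not reported here. The calculation was tested on simulated counts. Calculations used Python 3.11.15, numpy 2.4.6, pandas 2.3.3, scipy 1.17.1, statsmodels 0.14.6 and matplotlib 3.10.9.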

Additional observations from a re-analysis of the deposited data

Results flagged for a closer look

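For 9 of the 37 genes the counting intervals lay on opposite sides of 0 in the lines, lower in SKOV3 YY-15 and higher in ES2 YY-15 than in the control. The same held for 13.5% of the 11028 genes past the filter in both lines, and the reverse for 17%, so opposite directions were common among all genes. With 1 pair of libraries per line the difference was not tested. The SKOV3 minus ES2 difference of log2 ratios was -1.82 for MT-TV, -0.97 for MT-TM and -0.85 for MT-RNR1. For protein genes it was -0.52 for MT-ND6, -0.45 for MT-ND5, -0.36 for MT-ND2, -0.30 for MT-ND4L, -0.29 for MT-ND4 and -0.19 for MT-CO3. The ES2 log2 ratios of MT-ND5 and MT-CO3 were only 0.03 and 0.01, and they were -0.02 and -0.03 with FPKM rescaled. As said above, no direction can be given for the protein genes in ES2.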

How the results depend on the processing

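No paired analysis was possible because each group held 1 library, and for the same reason no library could be left out. The alternatives gave 346 values of single members in SKOV3 and 344 in ES2. Those that change the filter alone leave a member's ratio as it was, so such values could not move. None of the members past 2-fold in SKOV3 changed sign. No member was past 2-fold in ES2, so this could not be checked there. Of members under 2-fold, 3 in SKOV3 and 14 in ES2 changed sign. Rescaling FPKM moved the median of all genes between untreated lines from 0.07 to 0.21. The SKOV3 median of protein genes was -0.24 with FPKM rescaled to 1000000, -0.31 centred, -0.28 on counts per 1000000, -0.29 on counts outside the mitochondrial genome, and, added after the data were seen, -0.30 with the GC trend removed (local regression, span 0.3) and -0.28 with nuclear copies added. In ES2 it was -0.023 rescaled, with 5 of 13 above 0, 0.042 centred, 0.024 on counts outside the mitochondrial genome and 0.089 with the GC trend removed, with 11 of 13 above 0. Between untreated lines it was -0.20, -0.38, -0.32 and -0.33 in that order. At 1.5-fold, 1 protein gene was lower in treated SKOV3, and 2 were higher and 3 lower in untreated SKOV3 than in untreated ES2. The SKOV3 median of heavy-strand transfer RNAs, whose alternatives were also added later, was -0.98 with a pseudocount of 5, -0.98 rescaled, -0.89 on counts, -0.90 on counts outside the mitochondrial genome and -1.08 with the GC trend removed, and 11 were past 1.5-fold and 2 past 3-fold. The number 2-fold lower, 7 as reported, was 5 on both count scales, 6 with a pseudocount of 5, and 8 with a pseudocount of 0.1, centred or with the GC trend removed. In ES2 the median log2 ratio of heavy-strand transfer RNAs was 0.32 with the GC trend removed. Between untreated lines it was 1.64, 1.91, 1.502 and 1.496 in the first 4 of these orders, and 1.72 centred. Without ribosomal RNA, mitochondrial genes held 5.15% of untreated and 5.31% of treated ES2, and 4.14% of untreated and 3.73% of treated SKOV3. The cause of these shifts was not tested. Depth limits MT-TW and MT-TF most, at 22 and 45 counts in untreated ES2.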
